A study of Mus musculus with 9 samples.

Results

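The 9 genes described here encode inhibitory receptors of myeloid cells, with 1 ligand of such a receptor. They are Lilrb4a, Pilra, Siglece, Cd300a, Cd300lf, Sirpa, Lair1, Havcr2 and Cd274, 9 of the 27179 genes in the count table. The set was chosen from Lilrb4a, whose level was among those that differed most both between diseased and Control cord and between treated and untreated disease. The other 8 genes were taken for their function, with earlier results of these data known. The values of Lilrb4a are therefore given as a description with no test.

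Spinal cord RNA of C57BL/6 mice was sequenced in 9 libraries, 3 in each of 3 groups. Control mice made up the first group, and the labels state neither an immunization nor a vehicle for them. Mice with experimental autoimmune encephalomyelitis (EAE), a mouse model of multiple sclerosis in which autoreactive T cells bring an immune attack on the cord, made up the second. The third group, EAE+EHP-101, had EAE and received EHP-101, a compound known by its code name, by mouth at 20 mg/kg. The compound is described elsewhere as an activator of PPAR gamma and of the cannabinoid receptor Cnr2. For EAE, its mode of induction, the age and sex of the mice, the day of sampling and the length of dosing were not given in the sources used here. Each library came from whole cord tissue, so a lower level can mean fewer cells of a type or less RNA per cell, and these cannot be told apart.

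Inhibitory receptors of this kind restrain phagocytes. Most carry short tyrosine motifs in their tails that, once phosphorylated by Src family kinases, recruit the phosphatases SHP-1 (Ptpn6), SHP-2 (Ptpn11) or SHIP-1 (Inpp5d) and dampen signals from activating receptors. In the nervous system they are found on microglia and on myeloid cells that enter from the blood, and several have a closely related activating partner that signals through Tyrobp or Fcer1g. Sirpa is also abundant in neurons, so its level in cord is not that of myeloid cells alone. Havcr2 works without the classical motif, and Cd274 (PD-L1) is a ligand that engages the receptor PD-1 (Pdcd1) on T cells.

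Libraries held 30448507 to 32661741 counts. Levels are given as CPM, a gene's counts scaled to a common library size with TMM factors, and where genes are set against each other as CPM per kilobase of exon. Markers of cord tissue were high in every library, with neuron markers summing to at least 3633 CPM, oligodendrocyte markers to at least 25605 CPM and astrocyte markers to at least 2914 CPM. Skeletal muscle markers summed to 29.2 CPM in 1 Control library and to no more than 2.98 CPM in the other 8 libraries. All 9 genes passed the filter on low counts.

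Lilrb4a has a closely related neighbour, which matters for reads of 50 bases. The gene lies on chromosome 10 from 51490975 to 51496613 (mm10, plus strand, gene 14728), and Lilr4b lies upstream of it on the same strand, from 51480679 to 51486219 (gene 14727). Of the stretches of 50 bases in the Lilrb4a transcript 27.6% also occur in Lilr4b. The first 90 bases of the coding sequence of each (GENCODE M21, GRCm38) show how close the copies are, with capitals at the 2 bases that differ.
Lilrb4a: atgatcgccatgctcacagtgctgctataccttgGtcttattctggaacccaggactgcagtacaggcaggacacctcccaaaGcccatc
Lilr4b: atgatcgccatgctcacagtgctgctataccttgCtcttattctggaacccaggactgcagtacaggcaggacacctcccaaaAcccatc

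Among the other members the share of such stretches found in another gene was 23.4% for Pilra (16.6% with Zcwpw1), 5.99% for Cd300lf and between 0 and 3.11% for the remaining 6. The exons of Pilra (gene 231805, chromosome 5 from 137821952 to 137836278) overlap those of Zcwpw1 on the opposite strand. The libraries kept strand, but the strand setting of the counting is not given in the sources used here, so reads of that overlap may not be told apart. Zcwpw1 stood at 11.3 to 13.4 CPM in Control and 12.1 to 14.8 CPM in EAE with no call (log2 0.12, SE 0.11, adjusted p = 0.419 in edgeR's quasi-likelihood test). No exons of the other 8 members overlapped those of another gene in the table.

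Promoter sequences of 7 members, all but Lilrb4a and Sirpa, were read from RefSeq (GRCm38.p6). The interferon regulatory factor type motif GAAANNGAA, searched on both strands in the 250 bases before the transcription start, was present in 3 of them, Pilra, Cd300lf and Cd274. It occurs in 7.13% of 32851 promoter windows of that length. These 3 windows are shown for that motif, which is common in genes that respond to interferon, Cd274 among them. Capitals mark the motif.
Cd274, chr19:29367188-29367437, plus strand: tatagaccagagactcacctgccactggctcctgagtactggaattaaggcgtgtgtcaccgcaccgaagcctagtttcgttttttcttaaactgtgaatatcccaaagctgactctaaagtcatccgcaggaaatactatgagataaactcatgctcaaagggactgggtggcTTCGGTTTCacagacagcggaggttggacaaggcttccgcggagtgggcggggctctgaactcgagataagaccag
Cd300lf, chr11:115133993-115134242, minus strand: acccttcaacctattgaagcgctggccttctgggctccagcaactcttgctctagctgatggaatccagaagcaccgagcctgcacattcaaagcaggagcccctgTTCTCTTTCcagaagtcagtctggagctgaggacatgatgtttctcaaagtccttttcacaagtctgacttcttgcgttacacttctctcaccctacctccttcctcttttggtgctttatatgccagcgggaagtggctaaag
Pilra, chr5:137836279-137836528, minus strand: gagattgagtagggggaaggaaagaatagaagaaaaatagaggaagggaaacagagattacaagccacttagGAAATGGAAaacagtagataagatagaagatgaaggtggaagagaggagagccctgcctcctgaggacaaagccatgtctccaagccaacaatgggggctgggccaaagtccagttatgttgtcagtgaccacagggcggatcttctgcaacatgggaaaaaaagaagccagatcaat

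The motif begins 76 bases before the start in Cd274, 144 in Cd300lf and 178 in Pilra. The window of Havcr2 held 2 matches to AGGAAGT, a motif of the PU.1 and ETS type found in 7.69% of windows, 1 match to the AP-1 motif TGANTCA (6.75% of windows) and 1 to AGGTCA, the core site of nuclear receptors such as PPAR gamma (14.0% of windows). The STAT motif TTCNNNGAA was in none of the 7 windows, against 7.02% of all windows. A direct repeat of that core with 1 base between (DR1) was in none of the 7 and in 0.0335% of all windows. No 2 matches overlapped in these windows, Lair1, Siglece and Cd300a held no match to any of the 6 motifs, and a match is a run of letters, not a bound site.

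In Control cord the 9 genes differed widely in level. Sirpa, the receptor for the self marker CD47 that restrains phagocytosis, was by far the most abundant, at 41.9 ± 2.42 CPM per kilobase (SD, n = 3). Its level exceeded that of 90.1% of the 16749 genes tested. Lair1 followed at 3.75 ± 0.129, then Cd274 at 2.42 ± 0.0236 and Havcr2 at 1.51 ± 0.326 CPM per kilobase. Siglece at 0.543 ± 0.0426 and Cd300lf at 0.367 ± 0.0294 CPM per kilobase came next. The lowest 3, Lilrb4a (0.228 ± 0.0186), Cd300a (0.214 ± 0.0212) and Pilra (0.167 ± 0.0251 CPM per kilobase), overlapped between neighbours in this order, while all other neighbours were apart in every Control library.

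EAE was compared with Control to ask how disease moved these receptors. All 8 genes chosen for their function rose, by 1.47-fold (Sirpa) to 11.3-fold (Cd300lf), with adjusted p from 4.73e-05 to 0.00166 in edgeR's quasi-likelihood test (called at an adjusted p under 0.05 over all genes). In the same comparison 20.2% of the 16749 genes were called higher. For these 8 genes every EAE library lay above every Control library, which was so for 25.6% of genes. The median over the 8 was log2 1.67, beside 0.0055 over all genes tested.

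Lilrb4a, whose product binds fibronectin and restrains myeloid activation, stood at 0.296, 0.348 and 0.328 CPM in Control replicates 1, 2 and 3. In the EAE replicates it stood at 16.8, 19.1 and 12.97 CPM. The Control values rest on 9 to 11 counts each and the EAE values on 416 to 597. Its mean was 49.7-fold higher in EAE (log2 5.64, SE 0.33), the largest difference among the 9 and the value that chose the set. Lilr4b, a relative that lacks the inhibitory motifs in its tail, stood at 5 to 8 counts in the Control libraries and 73 to 134 in EAE (log2 3.95, SE 0.35, adjusted p = 3.44e-05). With the counts of both genes summed the difference was log2 5.19.

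Pilra and Siglece (chromosome 7, 43651070 to 43660161) bind sialylated ligands. Pilra stood at 0.394, 0.506 and 0.393 CPM in Control and at 4.35, 4.10 and 2.81 CPM in EAE. This was a rise of 8.62-fold (log2 3.11, SE 0.30, adjusted p = 4.73e-05). Siglece, which recognises sialic acid on neighbouring cells and is a brake on microglial phagocytosis, was one of the smaller changes. It stood at 0.920, 1.08 and 1.02 CPM in Control and at 2.66, 2.47 and 2.28 CPM in EAE, a rise of 2.45-fold (log2 1.29, SE 0.24, adjusted p = 0.00166).

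Cd300a and Cd300lf recognise phosphatidylserine and other lipids exposed on dying cells. Both genes are in 1 cluster of Cd300 genes on chromosome 11, Cd300a between 114890041 and 114904651 and Cd300lf between 115116214 and 115133992. Cd300a stood at 0.887, 1.01 and 1.08 CPM in Control and at 7.67, 10.6 and 5.96 CPM in EAE, 8.09-fold higher (log2 3.02, SE 0.37, adjusted p = 0.000166). Cd300lf stood at 0.755, 0.664 and 0.655 CPM in Control and at 9.60, 8.27 and 5.77 CPM in EAE. Its rise of 11.3-fold (log2 3.50, SE 0.35, adjusted p = 5.85e-05) was the largest among the 8. EAE replicate 3 was the lowest of its group for both genes, yet several-fold above the Controls.

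Sirpa, which lies at 129592839 to 129632228 of chromosome 2, stood at 166, 186 and 179 CPM in Control and at 262, 294 and 227 CPM in EAE. This rise was small in fold (1.47-fold, log2 0.56, SE 0.09, adjusted p = 0.000891) and the largest of the 9 in CPM. Lair1, a receptor for collagens and for the complement component C1q (chromosome 7, 4007073 to 4063204), stood at 12.9, 12.9 and 13.7 CPM in Control. It stood at 38.7, 40.4 and 31.8 CPM in EAE, 2.81-fold higher (log2 1.49, SE 0.15, adjusted p = 5.96e-05). Havcr2 (TIM-3), a receptor for galectin-9 found on microglia as well as on exhausted T cells (chromosome 11, 46454931 to 46481255), stood at 3.88, 3.39 and 5.11 CPM in Control and at 14.9, 17.2 and 12.3 CPM in EAE. It rose by 3.59-fold (log2 1.84, SE 0.23, adjusted p = 0.000196).

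Cd274 (chromosome 19, 29367438 to 29388095), the interferon-inducible ligand of PD-1, was even across Control libraries at 8.70, 8.86 and 8.85 CPM. In EAE it stood at 26.2, 22.7 and 20.9 CPM, a rise of 2.64-fold (log2 1.40, SE 0.22, adjusted p = 0.000653). In EAE the order of levels per kilobase had changed below Sirpa (61.7 ± 8.02). Lilrb4a came to 11.5 ± 2.19 CPM per kilobase from seventh in Control, and overlapped Lair1 at 10.5 ± 1.29. Siglece at 1.33 ± 0.103 was now last, overlapping Pilra at 1.45 ± 0.320 and Cd300a at 1.74 ± 0.503.

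**Figure D1:**
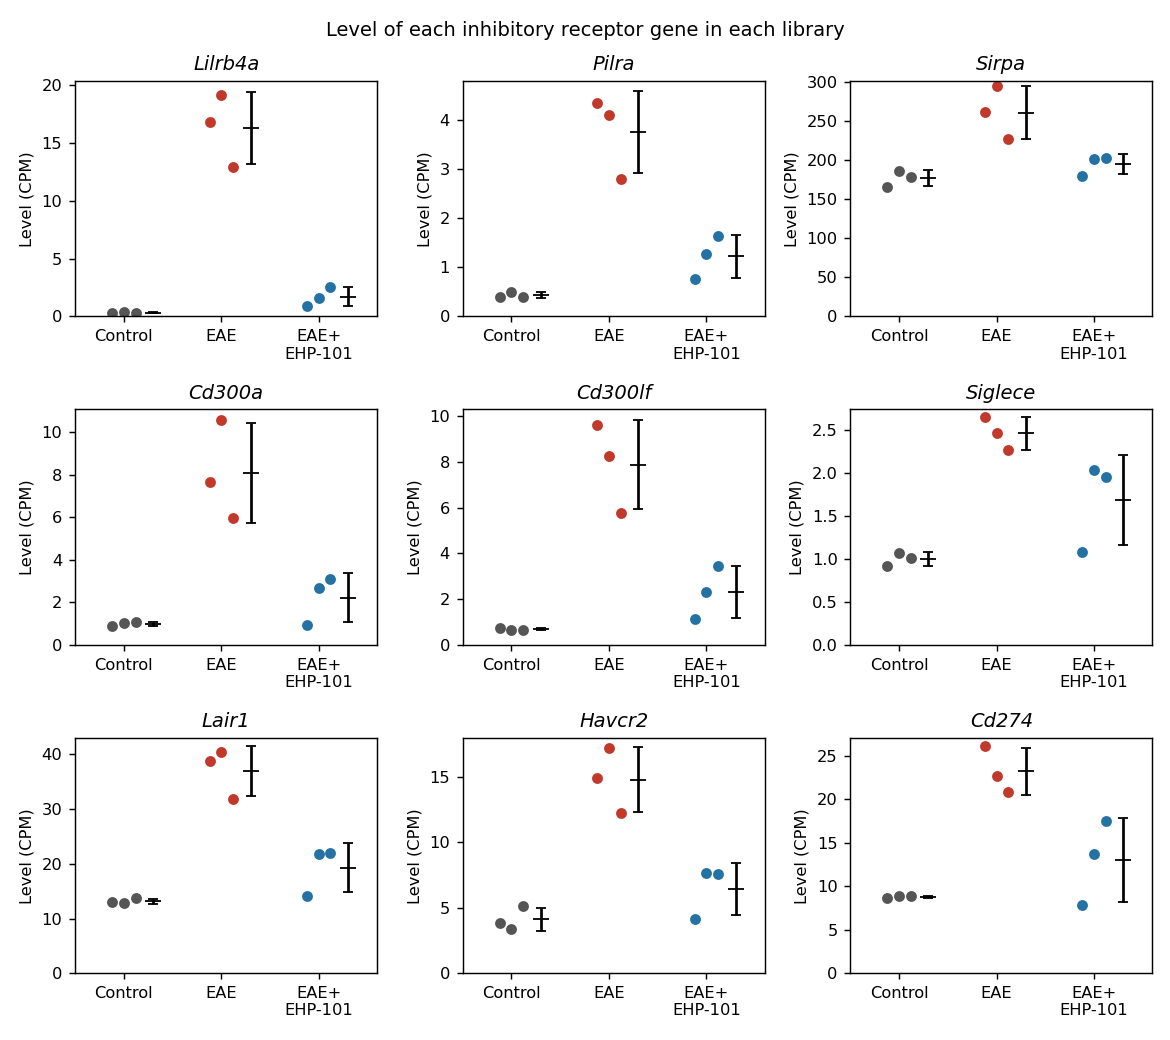
Level of each of the 9 genes (CPM, linear axis from 0) in every library by group, with the group mean and SD (n = 3) as a bar beside the points and replicates 1 to 3 from left to right. All EAE points lie above all Control points in each panel, and treated replicate 1 is the lowest treated point in each.

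Treated mice were compared with untreated EAE mice to ask which of these receptors moved with the compound. Of the 8 genes, 7 fell, by 1.34-fold (Sirpa) to 3.63-fold (Cd300a), and Siglece was not called. Of all genes tested 4.81% were called lower. Every treated library was below every EAE library for the 8 genes, as it was for 16.9% of genes. The median over the 8 was log2 -1.07 and over all genes -0.0011. Treated replicate 1 had the lowest level of the 3 treated libraries for 9 of 9 genes, as EAE replicate 3 had among the EAE libraries.

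Lilrb4a stood at 0.928, 1.62 and 2.56 CPM in treated replicates 1, 2 and 3. The mean was 9.56-fold lower than in EAE (log2 -3.26, SE 0.26), again the largest difference and again a value that chose the set. Lilr4b fell with it, from 3.22 to 0.524 CPM on average (log2 -2.61, SE 0.30, adjusted p = 0.00141). Both copies were high in EAE and low in treated mice, at levels that the shared stretches make uncertain.

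Among the sialic acid receptors, Pilra stood at 0.768, 1.26 and 1.63 CPM in treated mice and fell by 3.07-fold (log2 -1.62, SE 0.26, adjusted p = 0.00503). Siglece stood at 1.09, 2.04 and 1.95 CPM. Replicate 1 was near the Control level, replicates 2 and 3 were closer to EAE, and no treated library reached the EAE range. Its difference was log2 -0.54 (SE 0.22, adjusted p = 0.244).

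Of the lipid receptors, Cd300a stood at 0.928, 2.65 and 3.07 CPM in treated mice (log2 -1.86, SE 0.33, adjusted p = 0.00804). Cd300lf stood at 1.15, 2.33 and 3.46 CPM (log2 -1.77, SE 0.30, adjusted p = 0.00685). These were the largest falls among the 8 genes. Cd300a in treated replicate 1 lay within the range of the Controls.

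Sirpa stood at 180, 202 and 203 CPM in treated mice (log2 -0.42, SE 0.09, adjusted p = 0.0210). Lair1 stood at 14.1, 21.8 and 21.999 CPM (log2 -0.94, SE 0.15, adjusted p = 0.00438) and Havcr2 at 4.13, 7.66 and 7.56 CPM (log2 -1.20, SE 0.22, adjusted p = 0.00958). Cd274 stood at 7.84, 13.8 and 17.5 CPM, the first below all Controls, and its fall had the largest adjusted p of the 7 (log2 -0.83, SE 0.21, adjusted p = 0.0441). The call of Cd274 ended without any 1 of the 3 Control libraries, the 3 EAE libraries or treated replicate 2 (adjusted p 0.0535 to 0.161), and with library totals (0.0566) or upper quartile factors (0.0532). That of Sirpa ended without EAE replicate 1 (0.0739), EAE replicate 2 (0.112), treated replicate 1 (0.0868) or treated replicate 2 (0.0588), and that of Havcr2 without EAE replicate 2 (0.0525).

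**Figure D2:**
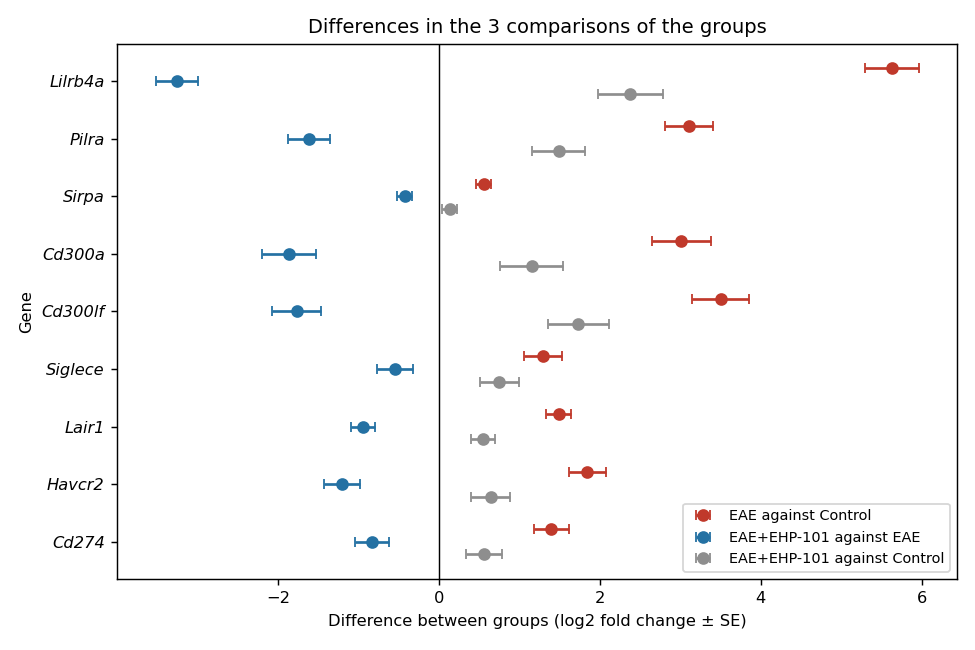
Difference between groups for each gene (log2 fold change on the horizontal axis, bars are SE) in the 3 comparisons, which share libraries. Lilrb4a has the widest span, from log2 5.64 for EAE against Control to -3.26 for treated against EAE, and Sirpa the narrowest, from 0.56 to -0.42.

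Treated mice were then set against Control to ask what remained. Of the 8 genes, 3 were called higher and 5 were not, where 9.96% of all genes were called higher. The 3 were Cd300lf (log2 1.74, SE 0.38, adjusted p = 0.0128), Pilra (log2 1.49, SE 0.33, adjusted p = 0.0132) and Lair1 (log2 0.55, SE 0.15, adjusted p = 0.0297). Siglece was at log2 0.75 (SE 0.24, adjusted p = 0.0515), Cd300a at 1.15 (SE 0.40, 0.0609), Havcr2 at 0.65 (SE 0.24, 0.0780), Cd274 at 0.57 (SE 0.22, 0.0936) and Sirpa at 0.14 (SE 0.09, 0.311). Lilrb4a had a treated mean of 1.70 ± 0.820 CPM against 0.324 ± 0.0264 CPM in Control. For 4 of the 8 genes, Pilra, Cd300lf, Siglece and Lair1, every treated library was above every Control library, as for 19.0% of all genes, and for the other 4 the groups overlapped. The treated libraries of Lilrb4a were above the Controls too. Of the 8 tested neutrophil markers 8 were higher than Control in treated mice and 1, Csf3r, in EAE, and their part in these levels was not tested. The count of 3 turned on single libraries. Without treated replicate 1 the number called was 7 of 8, all but Sirpa, and without replicate 2 or without replicate 3 it was 0 in edgeR, where 4 of 8 had an unadjusted p under 0.05. Lair1 also missed the threshold without Control replicate 1 (adjusted p = 0.0772) or 2 (0.0960), and DESeq2's Wald test called 6 of 8.

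The part of the EAE difference still present in treated mice was expressed in percent of the difference between the EAE and Control means. On linear CPM the mean was 8.62% ± 5.13 (SD, n = 3) for Lilrb4a and 47.1% ± 35.9 for Siglece. Cd274 kept 29.3% ± 33.7, Lair1 25.8% ± 18.8, Pilra 23.8% ± 13.1 and Cd300lf 22.6% ± 16.0. Havcr2 kept 21.8% ± 18.8, Sirpa 21.2% ± 15.2 and Cd300a 17.3% ± 16.1. Replicate 1 was the lowest for each of the 9 genes, with a median over them of 3.78%, against 29.2% in replicate 2 and 36.2% in replicate 3. The scale mattered for these percentages. On log2 CPM, with 0.1 added, the median over the 9 means was 35.2% in place of 22.6%, with Sirpa the lowest at 24.9% ± 17.4, Lilrb4a at 37.7% ± 13.1 and Siglece at 53.7% ± 38.9. In levels per kilobase the treated order was Sirpa (46.1 ± 3.01), Lair1 (5.50 ± 1.27), Cd274 (3.58 ± 1.34), Havcr2 (2.37 ± 0.739), Cd300lf (1.23 ± 0.612), Lilrb4a (1.199 ± 0.578), Siglece (0.915 ± 0.284), Cd300a (0.478 ± 0.245) and Pilra (0.472 ± 0.168 CPM per kilobase), and neighbours after Sirpa overlapped. In percent of the EAE difference on linear CPM, the ranges over the 3 treated libraries overlapped between any 2 of the 9 genes, with Siglece in replicate 1 at 5.73%.

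**Figure D3:**
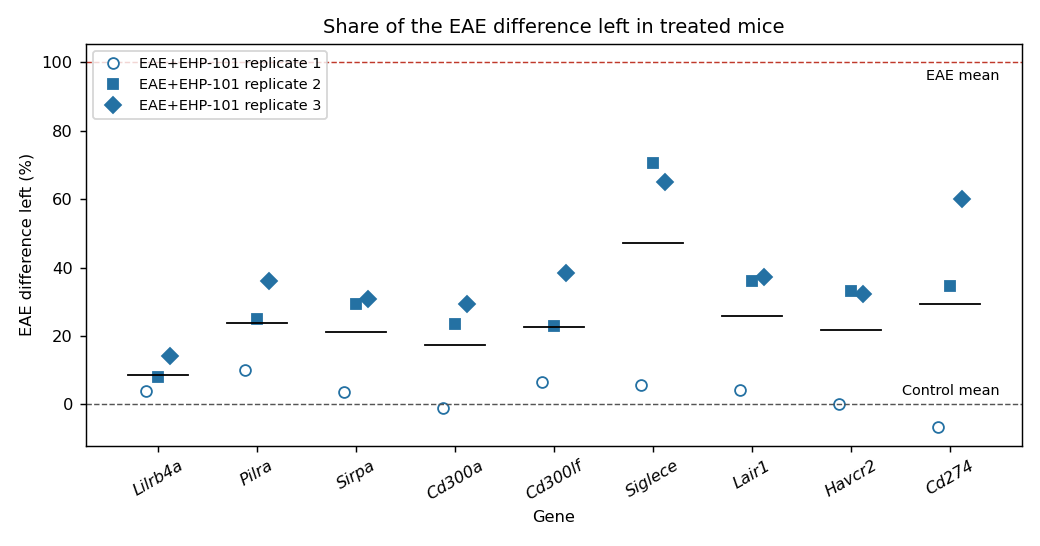
Percent of the difference between EAE and Control means that was left in each treated library, by gene, with the mean as a line, 0 at the Control mean and 100 at the EAE mean. Replicate 1 lies between -6.70% (Cd274) and 10.1% (Pilra), and replicates 2 and 3 of Siglece reach 70.6% and 64.9%.

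Markers of myeloid cells moved with these genes. Beside the counts below, 20.2% of all genes tested were called higher in EAE, and 4.81% were called lower in treated mice than in EAE. The share called higher in treated mice than in Control was 9.96%. Of the 6 pan-myeloid genes (Csf1r, Itgam, Aif1, Spi1, Laptm5 and Ptprc) 6 rose in EAE, with a median of 4.24-fold, 6 fell in treated mice, and 6 stayed above Control. Their summed level was 158 to 197 CPM in Control, 470 to 609 CPM in EAE and 211 to 341 CPM in treated mice, lowest in EAE replicate 3 and in treated replicate 1 as well. Summed markers of infiltrating monocytes and macrophages went from 11.5 to 17.4 CPM in Control to 410 to 574 CPM in EAE and 33.2 to 80.3 CPM in treated mice, where homeostatic microglia markers summed to 324 to 405, 705 to 977 and 386 to 517 CPM. Of the 10 infiltrating monocyte and macrophage markers 7 rose in EAE, and of the 9 microglia markers 6. Neutrophil markers summed to 13.3 to 23.4, 38.0 to 65.4 and 44.6 to 84.2 CPM, dendritic cell markers to 34.1 to 48.2, 65.7 to 76.0 and 39.1 to 45.7 CPM, and T cell markers to 1.71 to 2.20, 17.3 to 21.6 and 2.21 to 10.5 CPM in the same order of groups. Within the neutrophil list Csf3r, which other myeloid cells also express, was at 8.55, 36.0 and 17.8 CPM on average and fell in treated mice against EAE (log2 -1.02, SE 0.22, adjusted p = 0.0209). The median of the 8 tested was log2 1.09 in that comparison, opposite in sign to the 9 genes, with S100a9 at 7.54 CPM in EAE and 16.3 CPM in treated mice (adjusted p = 0.303) and the 7 other than Csf3r not called. In the dendritic cell list 6 of 8 rose in EAE, and 2 of 8 fell in treated mice against EAE. Flt3, most of the Control sum, averaged 34.0 CPM in Control, 29.9 CPM in EAE and 31.3 CPM in treated mice. Itgax averaged 0.442, 32.0 and 4.45 CPM in that order. B cell markers summed to at most 1.99 CPM in any library. Of 6 mast cell markers Kit alone passed the filter, and Fcer1a was at 0 in every Control and EAE library. What part these cells had in the levels of the 9 genes was not tested.

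Each gene was next expressed as a percentage of the summed pan-myeloid genes in the same library, a ratio that does not depend on library scaling. In EAE this ratio lay above all Controls in every library for 4 of the 8 genes chosen by function, below them for 3, and overlapped for 1. Over all genes tested the same ratio lay above for 2.53% and below for 93.3%. Lilrb4a went from 0.181% of the sum in Control to 2.94% in EAE, 16.3-fold higher. Cd300lf went from 0.390% to 1.42%, Pilra from 0.241% to 0.676% and Cd300a from 0.553% to 1.45%, with Havcr2 at 2.29% and 2.68%. Sirpa, whose level was close to the pan-myeloid sum in Control at 98.9%, was at 47.4% in EAE. Siglece went from 0.560% to 0.451% and Lair1 from 7.37% to 6.71%, and Cd274 overlapped at 4.93% and 4.24%. With 3 against 3 libraries the exact 2-sided permutation test cannot give less than p = 0.1, which each of the 7 tested genes other than Cd274 reached (adjusted 0.15 over 24 comparisons; Cd274 p = 0.2).

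Under treatment the ratios of Lilrb4a, Cd300lf, Cd300a, Pilra and Havcr2 were lower than in EAE in every library, with mean percentages of 0.571, 0.770, 0.732, 0.416 and 2.21. Over all genes tested the ratio was below EAE for 1.62% and above for 88.4%. Those of Sirpa (69.9%) and Siglece (0.582%) were above EAE. Lair1 and Cd274 overlapped EAE, Lair1 at 6.72% in treated mice against 6.71%. Where the groups were apart the exact 2-sided permutation p of the tested genes was 0.1 (adjusted 0.15), and for Lair1 and Cd274 it was 1. Against Control the treated ratio stayed above in every library for Cd300lf (1.94-fold) and Pilra (1.73-fold), as for 1.28% of all genes, and for Lilrb4a (3.09-fold). It was below for Sirpa (1.43-fold), as for 52.0% of all genes, and overlapped for the other 5. Of the 8 tested genes the 3 that were apart had an exact 2-sided permutation p of 0.1 (adjusted 0.15). Set against the homeostatic microglia markers instead, the ratio in EAE was above Control by log2 0.23 for Lair1, 0.05 for Siglece and 0.14 for Cd274, where the pan-myeloid genes gave -0.13, -0.31 and -0.22. The direction for these 3 genes thus depended on the reference chosen. The pan-myeloid sum is also weighted to Csf1r, its most abundant gene, at 104 CPM in Control and 255 CPM in EAE on average. Havcr2 rose 3.59-fold in EAE, less than the median of 4.24-fold over the 6 pan-myeloid genes. Its ratio above Control therefore rests on that weighting too.

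**Figure D4:**
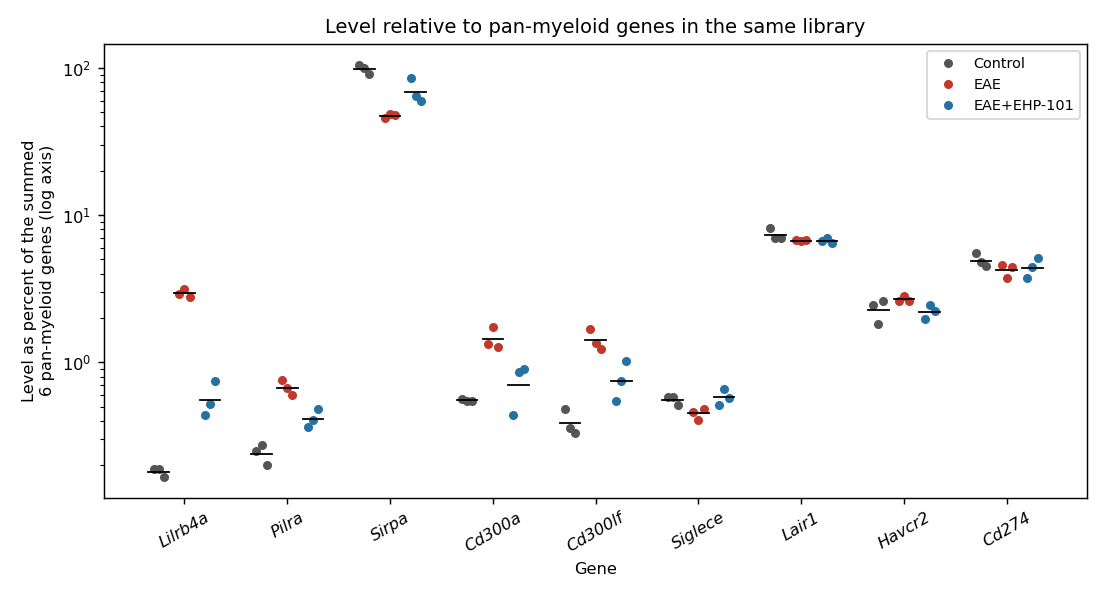
Level of each gene as a percentage of the summed level of 6 pan-myeloid genes in the same library (log axis), with points for libraries and a line at the geometric mean of each group. Lilrb4a lies at 0.181% in Control and 2.94% in EAE on average, Lair1 at 7.37% and 6.71%, and Sirpa at 98.9% and 47.4%.

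The kinases, phosphatases and adaptors that act behind such receptors were followed as a list of 16 genes. In EAE 12 of 16 rose and 4 were not called, with a median of 3.02-fold. For this list and those that follow, 20.2% of all genes tested were called higher in EAE and 16.7% lower. The shares in treated mice were 4.81% called lower than EAE and 9.96% called higher than Control. Ptpn6 (SHP-1), the phosphatase recruited by most of these receptors in myeloid cells, went from 5.55 to 34.3 CPM (log2 2.62, SE 0.20, adjusted p = 2.78e-05). The Src family kinase Fgr (log2 3.02, SE 0.27) and the adaptor Fyb (log2 2.48, SE 0.26) rose as well. Ptpn11 (SHP-2), which most cell types express, was at 343 CPM in Control and 328 CPM in EAE (log2 -0.06, SE 0.06, adjusted p = 0.435), and the kinase Fyn at log2 0.17 (SE 0.06, adjusted p = 0.0526). In treated mice 9 of the 16 fell, among them Ptpn6 (log2 -1.47, SE 0.19), Fgr (log2 -1.96, SE 0.25) and Fyb (log2 -1.26, SE 0.24). Against Control 7 of the 16 were still higher.

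Ligands and partners of the receptors did not move as one. In EAE 8 of 16 rose, 3 fell and 5 were not called, with a median of 1.68-fold. Over all genes tested the shares were 20.2% higher and 16.7% lower. Col3a1, a collagen chain and so of the ligand class of Lair1, went from 4.25 to 36.9 CPM (log2 3.11, SE 0.18), and C1qa, a chain of the Lair1 ligand C1q, from 41.4 to 344 CPM (log2 3.05, SE 0.24). Apoe went from 1245 to 4829 CPM (log2 1.96, SE 0.17) and Pdcd1, which encodes PD-1, from 0.225 to 2.63 CPM (log2 3.51, SE 0.32). Fn1 was at log2 0.74 (SE 0.28, adjusted p = 0.0599) and Bag6, an adaptor of TIM-3, at log2 0.09 (SE 0.09, adjusted p = 0.432). The 3 that fell were Cd47, Ceacam1 and Pianp, which were singled out after their values were seen. Cd47, the ligand of Sirpa, went from 46.1 to 34.6 CPM (log2 -0.41, SE 0.09, adjusted p = 0.00496) and stood at 34.7 CPM in treated mice (log2 0.01 against EAE, adjusted p = 0.983, and log2 -0.41 against Control, adjusted p = 0.0140). In treated mice 6 of the 16 fell against EAE, Col3a1 (log2 -2.62, SE 0.17), C1qa (log2 -1.59, SE 0.22), Apoe (log2 -1.41, SE 0.17), Pdcd1 (log2 -1.91, SE 0.27), Lgals9 and Col1a1.

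Of 16 activating receptors and adaptors 10 passed the filter, 8 of these rose in EAE and the other 2, Oscar (log2 -0.10, SE 0.19, adjusted p = 0.708) and Cd300e (log2 -0.27, SE 0.31, adjusted p = 0.560), were not called. Tyrobp (log2 2.87, SE 0.24), Fcer1g (log2 2.80, SE 0.27), Trem2 (log2 2.72, SE 0.25) and Cd300c2 (log2 2.84, SE 0.25) had the smallest p among the 8. In treated mice 5 of the 10 fell. Cd300lb, the activating receptor beside Cd300a, went from 0.0546 CPM in Control (0 to 4 counts a library) to 2.56 CPM in EAE (log2 5.46, SE 0.58, adjusted p = 7.17e-05) and fell in treated mice to 0.257 CPM (log2 -3.29, SE 0.44, adjusted p = 0.00240). Cd300ld rose in EAE (log2 2.51, SE 0.62, adjusted p = 0.00852). The activating partners of Pilra and Sirpa, Pilrb1, Pilrb2, Sirpb1a, Sirpb1b and Sirpb1c, were too low to test, at mean levels of 0.185, 0.535, 0.133, 0.146 and 0.268 CPM in EAE. Of their 50-base stretches 27.6%, 14.0%, 44.2%, 67.4% and 72.6% also occur in other genes, so these levels depend on how multiply mapped reads were counted.

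Of 19 further inhibitory receptors 17 were tested, and 15 rose in EAE, with a median over the 17 of log2 2.77. They included Lilr4b, which lacks the inhibitory motifs and shares stretches with Lilrb4a but was counted in this list. Clec12a (log2 3.52, SE 0.30), Pirb (log2 3.73, SE 0.34) and Fcgr2b, the inhibitory Fc receptor, from 3.25 to 30.2 CPM (log2 3.21, SE 0.30), rose as well. The other 2, Pecam1 (log2 -1.01, SE 0.19, adjusted p = 0.00200) and Ceacam1 (log2 -0.79, SE 0.15, adjusted p = 0.00222), both also expressed by endothelium, fell. All 5 endothelial markers fell too, from 111 to 191 CPM summed in Control to 51.2 to 90.8 CPM in EAE. What part endothelium had in the falls of Pecam1 and Ceacam1 was not tested. In treated mice 13 of the 17 fell, with Clec12a at log2 -2.08 (SE 0.26), Pirb at -1.49 (SE 0.28) and Fcgr2b at -1.66 (SE 0.27). Checkpoint receptors of lymphocytes rose in 7 of 8, with Lag3 (log2 3.25, SE 0.33), Cd244a (log2 3.64, SE 0.44) and Ctla4 (log2 3.95, SE 0.68, on 1 or 2 counts a library in Control) beside Pdcd1. In treated mice 3 of the 8 fell, Pdcd1, Lag3 (log2 -1.18, SE 0.29, adjusted p = 0.0373) and Cd244a (log2 -1.84, SE 0.36). Cd160 was not called in EAE (log2 0.56, SE 0.23, adjusted p = 0.0804). Lag3 averaged 5.28 CPM in Control, 50.3 CPM in EAE and 22.1 CPM in treated mice. The summed T cell markers averaged 1.93, 19.3 and 6.55 CPM, so Lag3 may not be of lymphocytes alone, which was not tested.

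The genes most like each member were sought by Pearson correlation of log2 CPM over the 9 libraries among 12551 other genes. The libraries hold 3 groups between which these genes differ, and the values are a description with no test. Lilrb4a was most like Lyz2 (r = 0.997), Vav1 (0.997) and Tent5c (0.996). Pilra was close to Unc93b1 (0.994) and Lgals9 (0.994), and Cd300lf to Fermt3 (0.998) and Ptpn6 (0.995). Cd300a was nearest to Ggta1 (0.998), Igsf6 (0.996) and Sh3bp2 (0.996). Lair1 was nearest to Ctsh (0.997), Rab32 (0.997) and Dock8 (0.996), and Havcr2 to Cd53 (0.995), Cd48 (0.994) and Cd84 (0.994). For Siglece the nearest were Slfn8 (0.995), Oasl2 (0.993) and Epsti1 (0.992), and for Cd274 Arl5c (0.991), Herc6 (0.989) and Dtx3l (0.987). Sirpa was nearest to Fabp7 (0.992), Tgif1 (0.990) and Mylip (0.989). Between members the lowest correlation was that of Sirpa with Siglece (0.882) and the highest that of Cd300a with Lair1 (0.995).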

How the data were processed

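RNA of whole spinal cord was sequenced in 9 libraries, per the labels' protocols from poly-A selected stranded libraries with single-end reads of 50 bases. The deposited table holds raw read counts per gene under Entrez identifiers in mm10. Trimmomatic 0.36, HISAT2 2.1.0, featureCounts 1.6.1 and DESeq2 1.20.0 are tools known per the submitters' processing notes, which give no roles. How counting treated strand and multiply mapped reads is not given in the sources used here. Symbols came from a RefSeq table (GRCm38.p6) for 25275 of 27179 identifiers. In R 4.3.3, edgeR 4.0.16 kept 16749 genes (filterByExpr), scaled libraries by TMM and fitted the 9 libraries by quasi-likelihood with group as the only term. P-values were adjusted by Benjamini-Hochberg over all genes tested, and genes under 0.05 were called. SE is the log2 fold change over the root of its F statistic. Nothing states that libraries came from separate animals, so the spread behind each p-value may be technical.

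The members and gene lists were chosen with earlier results of these data known. Named from the lists are up to 4 called genes with the smallest p in EAE against Control and up to 2 not called genes with the highest level, the close copies of members, and for likeness the 3 best correlated genes with mean log2 CPM of at least 1, leaving out predicted genes, pseudogenes and chromosome 18. Some of the genes so selected are not reported here. Zcwpw1, Kit, Fcer1a, Csf3r, S100a9, Flt3, Itgax, Cd47, Pecam1, Ceacam1, Pianp, Lgals9 and Col1a1 were named after their values were seen. Lilrb4b of the lists was matched to gene 14727 (Lilr4b), and 16 of 17 listed ligands were matched. Shared stretches were counted over GENCODE M21 transcripts with a RefSeq link. The titles number the libraries of each group 1 to 3, and nothing states that equal numbers mark a shared litter or day. Alternatives were other scalings, DESeq2 1.42.0, no filter, the gene length trend removed, the replicate number as a block, summed Lilrb4a and Lilr4b, and each library left out. Protein features of the members were planned and not analysed here.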

Additional observations from a re-analysis of the deposited data

How the results depend on the processing

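The 8 members chosen by function were called higher in EAE under each of the 17 alternatives. The number of all genes called higher in EAE (3391) was 2160 to 3399 with 1 library left out, lowest without EAE replicate 2. With library totals in place of TMM it was 3745. In treated mice against EAE the number of members called lower (7) was 4 to 7 with 1 library left out, lowest without EAE replicate 2, and the number of all genes called lower (805) was 348 to 921, lowest without EAE replicate 2 and highest without Control replicate 3. With DESeq2 the number of all genes called lower was 940. Against Control the members called in treated mice (3) were 6 with DESeq2 and 0 to 7 with 1 library left out, the lowest without treated replicate 2 or 3, when 4 had an unadjusted p under 0.05, and the highest without treated replicate 1. All genes called higher there (1669) numbered 761 with the gene length trend removed, 1095 with the replicate block, and 237 to 1712 with 1 library left out, the lowest without treated replicate 2. With library totals in place of TMM they numbered 2176. The causes were not tested. Same-numbered libraries did not deviate together (correlations of -0.187 to 0.123 over 9 pairs), so numbers are taken as names. With the replicate block Cd274 lost its call in treated mice against EAE (adjusted p = 0.0646), and the calls of the other 7 tested members were unchanged in the 3 comparisons. The log2 difference of Lilrb4a ranged over the 17 alternatives from 5.19 to 5.76 in EAE, from -3.68 to -2.96 in treated mice against EAE and from 1.95 to 2.67 against Control. The median share of the EAE difference left in treated mice was 22.6% on linear CPM and 35.2% on log2 CPM. No direction of a member's fold change reversed. The Control levels of Lilrb4a rest on 9 to 11 counts, which limits the precision of its fold changes. Control counts were also low for Pilra (12 to 16), Cd300lf (20 to 23), Cd300a (27 to 33) and Siglece (28 to 34).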
